A study of Homo sapiens with 4 samples.

Results

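The response to dihydrotestosterone (DHT) of 22Rv1 cells that had received siOCT1 was read from a pair of arrays, the siOCT1 array with DHT minus the siOCT1 array with vehicle. 22Rv1 is an established human line of castration-resistant prostate cancer, and OCT1 is an octamer-binding transcription factor. The genes described were those with 1 gene symbol whose signal exceeded background on at least 1 of these 2 arrays, which held for 7576 of 17687 genes. Background is the signal that 95% of an array's negative control probe sets stay under, 7.39 in vehicle and 6.91 with DHT on a scale taken as log2. Each group held 1 array: siControl with vehicle, siControl with 10 nM DHT, siOCT1 with vehicle and siOCT1 with 10 nM DHT. All 4 cultures were transfected 48 h before the ligand, kept for 3 days in medium without phenol red and with 2.5% charcoal-stripped serum, and harvested after 24 h in ethanol vehicle or DHT. The siControl groups, transfected with siControl in place of siOCT1, are the comparison arm, and nothing below has a replicate check or a test. The signal of the gene for OCT1 was not analysed here, so siOCT1 stands for the transfection as labelled.

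DHT binds the androgen receptor, a nuclear receptor that then enters the nucleus, binds hormone response elements with partner factors such as FOXA1 and HOXB13, and raises or lowers transcription of nearby genes. In prostate epithelium its targets serve secretion, lipid and polyamine metabolism and ion transport, and other genes, several of them for growth factor signalling or androgen removal, are lowered. Receptor binding sites often lie far from promoters. OCT factors recognise an octamer sequence and have been described beside the androgen receptor at some of its sites.

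The 2 siOCT1 arrays had medians of 6.01 and 5.99 and correlated with Pearson r of 0.959 over the 7576 genes, a description across genes and not across replicates. Of these genes 6694 lay above background on both arrays, 767 with DHT only and 115 in vehicle only, an imbalance that goes with the lower background of the DHT array. Genes of the last 2 classes entered through 1 array only, so a difference is built into them. Closest inside the limit were NGLY1 (6.80 and 6.91) and ZC3H12C (5.76 and 6.91), and closest outside were TOLLIP (7.03 and 6.91) and ZNF621 (7.39 and 6.88), each in vehicle and DHT. Of 12 luminal epithelial markers on the array 11 lay above background in both conditions, including KRT8, KRT18, EPCAM, CDH1, FOXA1 and HOXB13. None of 2 basal, 3 endothelial and 9 immune markers did, and of 8 stromal markers ACTA2 alone did, so the signals carried the epithelial label of the line.

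A gene was counted as higher or lower with DHT where its difference reached 2-fold, with the dimmer value first raised to the background of its array. By this rule 218 genes were higher, 2.88% of the genes measured, and 195 were lower, 2.57%. Of the higher genes 184 were measured on both arrays and 34 with DHT only, and of the lower genes 164 on both and 31 in vehicle only. The median difference over all genes was 0.04, and 69.4% of genes differed by less than 0.5 on the log2 scale. Large differences leaned upward: 30 genes were at least 4-fold higher and 14 lower, and at least 8-fold the counts were 9 and 1. Dim genes varied more, with a median absolute difference of 0.42 in the dimmest of 4 equal groups of genes by level and 0.24 in the brightest. Of the 49 negative control probe sets that passed the same filter, 7 were higher and 15 lower by the rule, 44.9% in all, so a difference near background can be noise.

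**Figure D1:**
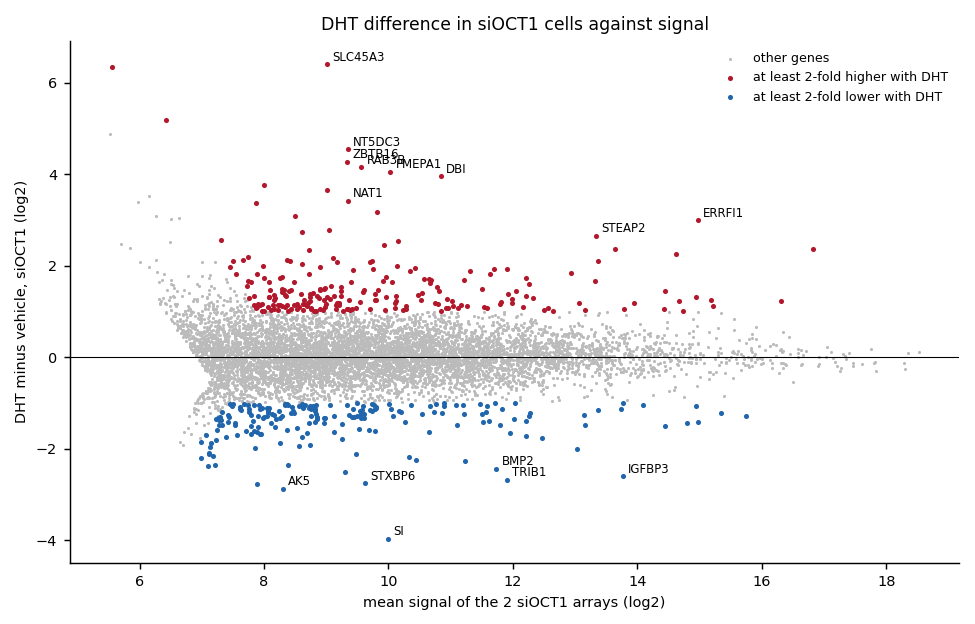
Difference between the siOCT1 arrays, DHT minus vehicle on the log2 scale, against the mean signal of the pair for 7576 genes; red points are at least 2-fold higher and blue points at least 2-fold lower after the dimmer value was raised to background. Most points lie within 0.5 of zero, and SLC45A3 at 6.40 and SI at -3.97 stand at the ends.

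The genes with the highest differences had varied known roles. SLC45A3, which encodes the prostate membrane protein prostein, had a signal of 5.81 in vehicle, below background, and 12.21 with DHT, at least 28.2-fold higher. The siControl arrays read 5.34 and 11.63 for it, so the gene went from below background to bright with either siRNA. RAB3B, a small GTPase of regulated vesicle release, stood at 7.48 and 11.64, a 17.8-fold difference, beside 6.95 and 11.37 in siControl. NT5DC3, a protein with a 5'-nucleotidase domain, read 7.07 and 11.62, at least 18.7-fold higher, beside 8.19 and 12.69. All 3 genes were over 16-fold higher with DHT under either siRNA, and the DHT signal of NT5DC3 was the lower one in siOCT1 cells.

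ZBTB16, a zinc finger transcriptional repressor, read 7.20 and 11.47 and was at least 16.9-fold higher, with 7.63 and 10.87 in siControl. PMEPA1, which restrains TGF-beta signalling and promotes androgen receptor degradation, went from 8.003 to 12.06, 16.6-fold, where siControl cells went from 10.15 to 12.70. Its DHT signals lay closer together than its vehicle signals, and the siOCT1 vehicle array was the lowest of the 4. DBI, the acyl-CoA-binding protein, showed another layout, with 8.87 and 12.82 in siOCT1, 15.5-fold, and 11.07 and 14.71 in siControl. Both of its siOCT1 signals lay below the siControl array of the same ligand, while the difference by DHT was similar.

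NAT1, an arylamine N-acetyltransferase, stood at 7.63 and 11.05, 10.7-fold. The metalloreductase family was represented by STEAP2, at 12.01 and 14.66 (6.30-fold), STEAP1, at 7.65 and 10.43 (6.85-fold), and the related STEAP1B, at 8.22 and 11.39. STEAP1 and STEAP1B are close paralogs whose probes may read shared transcripts, so their separate values are uncertain. ERRFI1, an inhibitor of EGF receptor kinases, was the brightest of the 15 highest genes, with 13.47 and 16.47. The kinase STK39 read 8.89 and 11.43, a 5.84-fold difference. NDRG1, a stress- and androgen-responsive gene, was below background in vehicle at 6.13 and read 9.89 with DHT, at least 5.63-fold higher. RARB, a retinoic acid receptor, was likewise at 7.24 and 9.99, at least 6.03-fold.

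TMEM64, a membrane protein, stood apart from the other 14 of these genes. It read 7.18 in vehicle and 10.84 with DHT in siOCT1 cells, at least 10.9-fold higher, but 10.69 and 11.31 in siControl. The siOCT1 vehicle array was thus the low one of the 4, and the remaining 3 lay within 0.62 of each other. With 1 array per group, a property of that array and of the condition cannot be told apart.

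**Figure D2:**
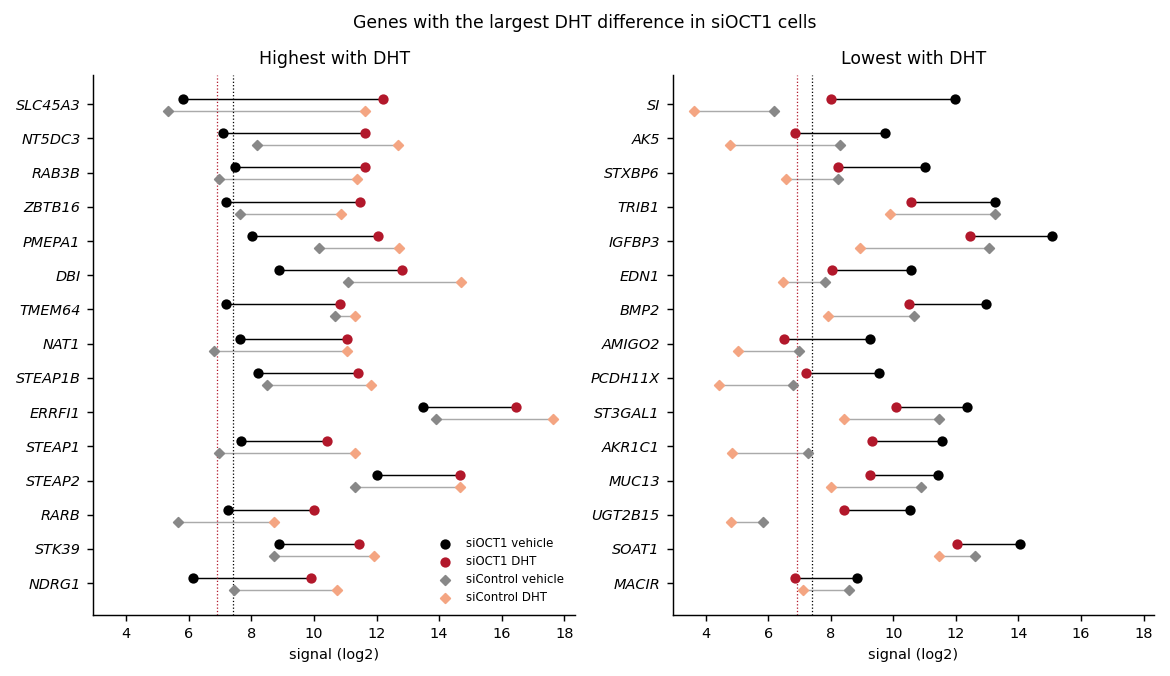
Signal on the log2 scale of the 15 genes with the highest and the 15 with the lowest DHT difference in siOCT1 cells; circles are the siOCT1 arrays (black vehicle, red DHT), diamonds the siControl arrays (grey vehicle, orange DHT), and dotted lines the backgrounds of the siOCT1 arrays, 7.39 and 6.91. TMEM64 has 3 arrays close together and 1 low. SI, AKR1C1, UGT2B15, EDN1, PCDH11X and, narrowly, STXBP6 lie higher on both siOCT1 arrays than on either siControl array.

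A list of androgen-induced genes, compiled with earlier results of these arrays known and therefore no independent evidence, had 59 genes on the array and 40 measured in siOCT1 cells. Of these 23 were higher with DHT and 2 lower, against 2.88% and 2.57% of all genes, and the median difference, like all list medians taken without raising dim values, was 1.68 beside 0.04 over all genes. Of the 40 genes 29 exceeded background on both arrays, with 17 higher, 1 lower and a median of 1.25. In siControl cells 26 of the same 40 were higher and none lower, with a median of 2.19. Fatty acid elongation was represented by ELOVL5, at 14.57 and 15.81, and the transcription elongation factor ELL2 stood at 14.06 and 15.28. HPGD, which inactivates prostaglandins, went from 13.49 to 15.74, 2.25 on the log2 scale, beside 4.05 in siControl, where its vehicle signal was lower at 11.78 and its DHT signal of 15.83 nearly the same. INPP4B, a phosphatase that opposes PI3K signalling, was below background in vehicle at 6.19 and read 9.56 with DHT, at least 4.49-fold higher. HOMER2, a scaffold protein, read 8.70 and 11.14. The kallikrein KLK4 was bright on both arrays, at 13.72 and 15.16, a difference of 1.45, against 15.29 and 15.56 in siControl. ATAD2, a chromatin ATPase, had a difference of 1.97 from a low vehicle signal of 7.91, and 2.11 in siControl from 10.63.

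The exceptions in this list were ACP3, prostatic acid phosphatase, at 8.12 and 6.15 (at least 2.32-fold lower), and ADAMTS1, a secreted protease, at 9.39 and 8.26. ACP3 also stands in the list of androgen-repressed genes. Of the 19 androgen-induced genes below background on both siOCT1 arrays, 6 were at least 2-fold higher in siControl. They were F3, PGC, CHRNA2, SGK1, STEAP4 and KLK2. The share of all genes below background on both siOCT1 arrays that passed 2-fold in siControl was not counted, so 6 of 19 has no baseline. In siOCT1 cells KLK2 read 4.13 and 6.78, CHRNA2 3.503 and 5.668, and F3 2.596 and 5.11. These signals were higher with DHT but below background, where a difference can be noise. STEAP4 read 3.17 and 3.48. SGK1, a kinase, read 4.08 and 4.44 in siOCT1 cells and 3.45 and 8.90 in siControl, so the siControl DHT array alone lay above background. PGC, progastricsin, showed the same layout with 3.82, 4.84, 3.67 and 9.33 in the order siOCT1 vehicle, siOCT1 DHT, siControl vehicle and siControl DHT. TMPRSS2 was below background on all 4 arrays.

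TMEFF2, a transmembrane proteoglycan of prostate and brain, differed between the siRNAs in the other direction. It stood at 12.46 and 14.83 in siOCT1 cells, a 2.38 difference on the log2 scale, and at 10.29 and 10.78 in siControl. SLC2A12, a sugar transporter, read 9.14 and 11.13, a difference of 1.99, beside 7.25 and 7.34 in siControl. The luminal keratin KRT19 read 8.03 and 10.19, beside 9.30 and 9.35 in siControl. For all 3 genes the siControl arrays differed by less than 0.5, and whether the siRNAs differ was not tested.

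Solute carriers were higher in several cases. Of 35 transporter genes on the array 24 were measured. Of these 6 were higher, SLC45A3 and SLC2A12 among them, and 1 lower, against 2.88% and 2.57% of all genes. In siControl 8 of the 24 were higher and 2 lower, against 7.02% and 2.65% of all genes. The median difference in siOCT1 was 0.59 against 0.04 over all genes. Over the 19 above background on both arrays the median was 0.57. SLC12A2, the sodium, potassium and chloride cotransporter, read 8.47 and 10.38, a difference of 1.91, and 1.85 in siControl. The neutral amino acid transporters SLC38A1 and SLC38A2 differed by 1.07 and 1.02, from 12.03 to 13.10 and from 14.22 to 15.24, and the zinc transporter SLC39A6 by 1.18. The differences of SLC38A1 and SLC38A2 in siControl were 1.11 and 1.08. The lysosomal arginine sensor SLC38A9 was lower, at 8.14 in vehicle and 6.32, below background, with DHT.

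A few genes of lipid handling were higher. Of 34 measured genes of fatty acid and cholesterol synthesis 4 were higher and 0 lower, against 2.88% and 2.57% of all genes. Beside DBI and ELOVL5 these were ELOVL2, an elongase of long polyunsaturated fatty acids, at 7.13 and 8.86 (at least 2.77-fold), and ACAT2, which makes acetoacetyl-CoA, at 8.64 and 9.77. Among 28 genes of fatty acid oxidation and ketone metabolism 1 was higher and 0 lower, near the share of all genes. It was CROT, the peroxisomal carnitine octanoyltransferase, with 12.32 and 14.42, a difference of 2.10 beside 3.11 in siControl. The medians of both lists, 0.18 and -0.08, were near that of all genes. In siControl, where 7.02% of all genes were higher and 2.65% lower, each of these lists had 5 higher genes. The synthesis list had 1 lower gene there and the oxidation list 0. In polyamine metabolism 1 of 10 genes was higher, SAT1, the acetyltransferase that starts polyamine export and breakdown, at 10.72 and 12.65, while the synthases SRM and SMS differed by 0.41 and 0.30.

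The insulin-like growth factor axis and PI3K control differed at a few genes. The receptor gene IGF1R read 8.13 and 10.22, a difference of 2.09 beside 1.13 in siControl. Its ligand gene IGF1 was below background in vehicle at 6.99 and read 8.98 with DHT, at least 3.01-fold higher. The carrier IGFBP3, which sequesters the ligand, was lower, at 15.07 and 12.46, a 6.08-fold difference against 17.5-fold in siControl, where it read 13.06 and 8.93. Of 11 measured genes of this axis 2 were higher and 1 lower, against 2.88% and 2.57% of all genes. The siControl counts of these 11 were also 2 and 1. In the PI3K and mTOR list 1 of 21 was higher, INPP4B, and 0 were lower. In siControl 3 of the 21 were higher and 0 lower, against 7.02% and 2.65% of all genes.

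Of 41 measured DNA replication genes 7 were at least 2-fold higher with DHT and 0 lower, against 2.88% and 2.57% of all genes. In siControl cells 4 of the same genes were higher and 1 lower, against 7.02% and 2.65% of all genes. Of the 41 genes 14 exceeded background with DHT only in siOCT1, which builds an upward difference into them. The other 27 exceeded it on both siOCT1 arrays. Among the 27, 23 lay above zero and 6 were higher, with a median difference of 0.33 beside 0.0057 over all genes above background on both arrays, where 50.6% lay above zero. In siControl the median of these 27 was 0.04. ORC5, a subunit of the origin recognition complex, read 10.94 and 12.88 in siOCT1 and 12.02 and 13.79 in siControl. RRM2, the small subunit of ribonucleotide reductase, went from 8.57 to 9.90, a difference of 1.33 beside 0.52, from 12.72 to 13.24, in siControl. DTL, which targets licensing factors for degradation, read 8.12 and 9.35, beside 12.54 and 12.58, and the helicase subunit MCM7 9.71 and 10.74, beside 12.50 and 12.23. RRM2, DTL and MCM7 were dimmer on both siOCT1 arrays than on either siControl array. The clamp loader subunit RFC3 differed by 1.19 and 1.13 with the 2 siRNAs, and DBF4, the activator of the CDC7 kinase, by 1.09 and 1.78. TK1, thymidine kinase, was just below background in siOCT1 vehicle at 7.38 and read 8.56 with DHT. With values as deposited 12 of these genes passed 2-fold, and with the 99th percentile of the negative controls as background 3 did.

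**Figure D3:**
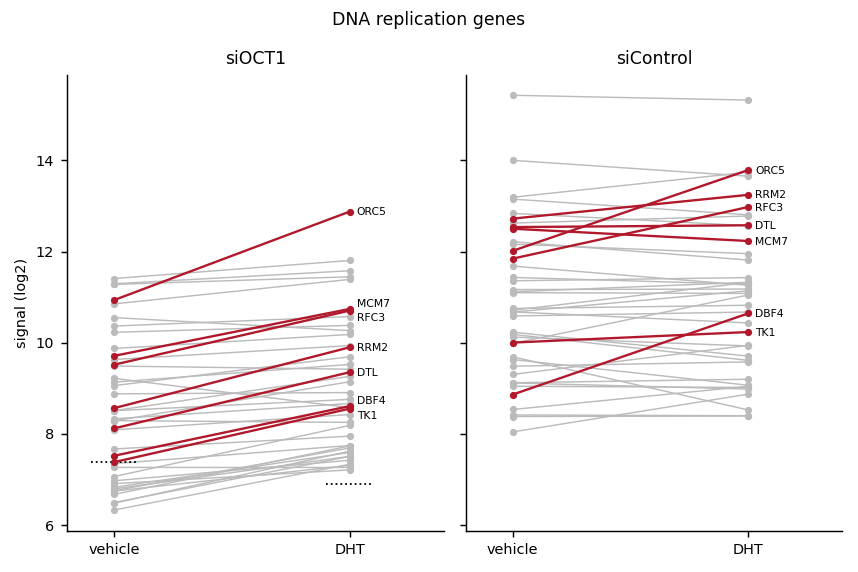
Signal on the log2 scale of the 41 measured DNA replication genes with vehicle and DHT, siOCT1 on the left and siControl on the right; red lines are the 7 genes at least 2-fold higher in siOCT1 and grey lines the others. Dotted marks are the siOCT1 backgrounds, 7.39 and 6.91, and 14 genes start below the first and end above the second; ORC5 is the brightest red gene with DHT on either side.

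Other cell cycle lists showed less. Of 53 measured mitosis genes 2 were higher and 0 lower, a share near the 2.88% of all genes, and 16 of them were higher in siControl, where 7.02% of all genes were. Over the 44 above background on both siOCT1 arrays the medians were 0.11 in siOCT1 and 0.38 in siControl. The 2 siOCT1 genes were NCAPD3, a condensin subunit, at 8.43 and 9.71, and CDK1, the kinase of mitotic entry, at 8.06 and 9.22, beside 10.15 and 11.86 in siControl. DNA repair genes had 0 of 27 past 2-fold and a median of 0.10 over the 21 above background on both arrays, CHEK1 having the largest bounded difference at 0.90. Among cyclins and E2F regulators 1 of 23 was higher, E2F4, a repressive E2F, at 8.88 and 10.30 beside 9.81 and 9.90. In the list of p53 target and arrest genes 1 of 23 was higher, the exonuclease gene AEN, at 10.09 and 11.54 beside 10.35 and 10.35. Histone genes had a median of -0.17 and 0 of 21 past 2-fold.

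Sucrase-isomaltase (SI), a brush border disaccharidase, had the largest difference among the lower genes. It read 11.97 in vehicle and 8.002 with DHT in siOCT1 cells, a 15.7-fold difference, and was below background on both siControl arrays at 6.17 and 3.64. AK5, an adenylate kinase, went from 9.73 to 6.86, just below background, and was at least 7.10-fold lower. STXBP6, a syntaxin-binding protein, read 11.004 and 8.25, a 6.76-fold difference, beside 8.21 and 6.58 in siControl. These genes had higher vehicle signals in siOCT1 than in siControl, and the siOCT1 vehicle array enters both that contrast and the DHT difference.

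Among signalling genes, the pseudokinase TRIB1, an adaptor for protein degradation, read 13.24 and 10.56, a 6.43-fold difference, and 13.26 and 9.90 in siControl. The vasoconstrictor peptide gene EDN1 read 10.56 and 8.04, 5.71-fold lower, beside 7.81 and 6.48. BMP2, a bone morphogenetic protein, read 12.95 and 10.51, 5.43-fold lower, and was 6.70-fold lower in siControl from 10.66 to 7.91. TRIB1 thus had nearly the same vehicle signal with both siRNAs, whereas EDN1 and BMP2 started higher in siOCT1 cells. AMIGO2, an adhesion protein, was at least 5.13-fold lower, and the protocadherin PCDH11X 5.12-fold lower, at 9.56 and 7.20. ST3GAL1, which adds sialic acid to O-linked glycans, stood at 12.36 and 10.09, and the transmembrane mucin gene MUC13 at 11.42 and 9.25. SOAT1, which esterifies cholesterol for storage, was bright at 14.04 and 12.03, a difference of 2.01 in size beside 1.18 in siControl. MACIR, a regulator of macrophage inflammation, was at least 3.83-fold lower.

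Of 13 measured genes of androgen metabolism 3 were lower with DHT and 0 higher, against 2.57% and 2.88% of all genes, and the list median was -0.09. AKR1C1, a hydroxysteroid dehydrogenase, read 11.57 and 9.32, 4.75-fold lower, and its paralog AKR1C2 read 13.90 and 12.42. UGT2B15, which glucuronidates androgens, read 10.53 and 8.42, 4.32-fold lower, and was below background on both siControl arrays at 5.82 and 4.81. UGT2B17 did not pass 2-fold, with 7.78 in vehicle and 6.30, below background, with DHT. The paralogs of each family are nearly identical and their signals may be shared.

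The list of androgen-repressed genes, also compiled with earlier results known, had 26 of 44 genes measured, with 12 lower and 2 higher and a median of -0.996. Over all genes 2.57% were lower and 2.88% higher. In siControl 9 of the same 26 were lower and 2 higher, with a median of -0.95. FOLH1, which encodes prostate-specific membrane antigen, read 15.68 and 14.26, a difference of 1.42 in size against 2.06 in siControl. GATA2, a pioneer factor of the androgen receptor, read 9.52 and 7.59, 1.93 lower, and 10.26 and 7.002 in siControl. TMEM45A was at least 2.40-fold lower, and the imprinted gene PEG10 went from 9.27 to 8.16, beside 10.06 and 10.45 in siControl. The 2 exceptions in siOCT1 were TNFRSF19, a receptor of the tumour necrosis factor family, at 7.41 and 8.74, and CLGN, a testis chaperone gene, at 10.34 and 11.36. The siOCT1 median was closer to zero at -0.34 with no filter on dim genes and -0.50 over genes above background on both arrays.

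Genes of TGF-beta and BMP signalling were lower more often than higher, 5 against 2 of 24 measured, with a median of -0.44 and 15 of 24 below zero. Over all genes 2.57% were lower and 2.88% higher, and in siControl 8 of the same 24 were lower and 2 higher. Beside the ligand BMP2 the lower ones included its targets ID2, at 15.21 and 13.70, and ID3, at 14.31 and 13.17, which inhibit basic helix-loop-helix factors. The differences of ID2 and ID3 were -1.51 and -1.14 in siOCT1 and -3.36 and -2.57 in siControl, where their DHT signals were 11.03 and 10.92. The receptor-regulated SMAD9 went from 10.24 to 9.22 and the corepressor SKIL from 9.99 to 8.99. The higher ones were PMEPA1 and the receptor BMPR1B, the latter from below background at 6.45 to 8.56. With 32 added before the logarithm, or with the 99th percentile as background, 3 were lower.

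A list of gastrointestinal and hepatic genes had 9 of 34 genes measured. Of these 5 were lower and 1 higher, against 2.57% and 2.88% of all genes. Beside SI, MUC13 and UGT2B15 the lower ones were albumin (ALB), at 13.35 and 11.59 beside 11.04 and 9.36 in siControl, and villin (VIL1), at least 2.06-fold lower. The higher one was HNF4G, a hepatocyte nuclear factor, at 7.34 and 8.41, at least 2.02-fold, which did not pass with arrays centred on positive controls, with lowess centring or with 32 added. A1CF, an RNA-editing cofactor, stood at -0.95. Of these 9 genes 6 lay above background on both arrays, all with a difference below zero, and the other 25 lay below background on both siOCT1 arrays.

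Among steroid receptors and cofactors 3 of 23 were lower and 1 higher, against 2.57% and 2.88% of all genes. Beside GATA2, the coactivator NCOA2 went from 12.78 to 11.12, a difference of -1.65 against -0.65 in siControl, and the glucocorticoid receptor NR3C1 from 8.22 to 7.06. The SUMO ligase PIAS1 was higher, at 14.65 and 15.78. HOXB13 stood at 11.21 and 10.24, just under the size rule. Centring on positive controls or by lowess gave 5 lower genes in this list. The lower count over all genes also rose under these settings, from 195 to 229 and 221. In siControl 1 of the 23 was lower and 2 higher by the main rule. Of 16 genes in the list of OCT and POU factors and their partners 2 were measured, the cofactor HCFC1 at 9.92 and 9.56 and the snRNA activator subunit SNAPC1 at 8.87 and 8.96, neither past 2-fold.

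Over all genes 2.88% were higher and 2.57% lower in siOCT1, and 7.02% and 2.65% in siControl. Adhesion genes were split, with 2 higher and 3 lower of 24 and a median of -0.39. In siControl 4 of the 24 were higher and 4 lower, with a median of -0.37. In siOCT1 cells the brain cadherin CDH12 read 11.46 and 13.07 and the integrin ITGAV 7.47 and 8.84. The tight junction gene OCLN read 12.31 and 10.93 and the desmosomal cadherin DSG2 10.88 and 9.84. CTNND2, a catenin, was at least 2.01-fold lower. In glycosylation 2 of 30 genes were higher and 2 lower in siOCT1, and 5 and 2 in siControl. The hexosamine enzyme GNPNAT1 read 10.30 and 11.57 in siOCT1 and the branching enzyme GCNT1 was at least 2.17-fold higher there. ST3GAL1 and the mucin-type transferase GALNT3, at 11.43 and 10.37, were lower. For vesicle traffic 2 of 51 were higher, RAB3B and the endosomal RAB4A (11.54 and 12.88), and the calcium sensor SYT7 was lower at 10.29 and 9.24. These vesicle counts were near the shares of all genes. With arrays centred on positive controls or by lowess 2 were higher and 3 lower. In siControl 4 of the 51 were higher and 1 lower by the main rule.

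In the remaining lists the counts past 2-fold were small and came from short lists. Over all genes 2.88% were higher and 2.57% lower. In the list of immediate early and MAPK feedback genes 3 of 21 were higher and 2 lower. Beside ERRFI1 and TRIB1 these were KLF4, from below background at 6.02 to 8.58, the atypical kinase MAPK6, from 11.61 to 12.71, and KLF10, lower from 10.81 to 9.60. Genes shared with the glucocorticoid response had 2 of 16 higher, ZBTB16 and ERRFI1, and none lower. Of 35 interferon-stimulated genes on the array 30 lay below background on both siOCT1 arrays. Of the 5 measured 2 were higher, the ADP-ribosyltransferases PARP9, at 9.84 and 11.54, and PARP14, at 10.01 and 11.54. In the glutathione list GCLC, the rate-limiting enzyme of glutathione synthesis, was higher at 11.23 and 12.61, and HMOX1, haem oxygenase, lower at 10.10 and 8.80, with AKR1C1 as the other lower gene among 21. Of 15 BCL2 family genes BCL2L1, which opposes apoptosis, read 7.78 and 8.89, and BMF, which promotes it, 8.79 and 7.10. Of 7 cytokine and receptor genes 2 were higher and 1 lower, among them the chemokine CXCL13, far below background in vehicle at 2.37 and at 8.73 with DHT, at least 2.52-fold higher, and the death receptor TNFRSF21, lower from 10.15 to 8.86. Among 28 glycolysis and hypoxia genes NDRG1 was higher and the carbonic anhydrase CA12 lower, at 9.45 and 8.005. Luminal markers had 3 higher and 3 lower of 21, and 1 of 12 neuroendocrine genes, PEG10, was lower.

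By the main rule no gene passed 2-fold among 34 ribosomal protein genes, 34 endoplasmic reticulum genes, 23 genes of tRNA charging and the ATF4 response, and 21 reference genes. Ribosomal protein genes had a median of -0.0015 and the furthest was RPL27 at -0.55. Reference genes had a median of 0.08, with SDHA at -0.68 and SNRPD3 at 0.64 the furthest. Endoplasmic reticulum genes had a median of 0.04, and 19 of 34 lay above zero. The trophic factor MANF stood at -0.87 and the stress factor XBP1 at -0.80. At 1.5-fold 5 of the 34 genes were higher and 2 lower, where 827 and 752 of all 7576 genes were. Genes of tRNA charging and the ATF4 response lay above zero in 19 of 23 cases, with a median of 0.34 beside -0.39 in siControl. Over the 22 above background on both siOCT1 arrays 18 lay above zero, where 50.6% of all such genes did. In that list SESN2 stood at -0.85 and CEBPG at 0.79.

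**Figure D4:**
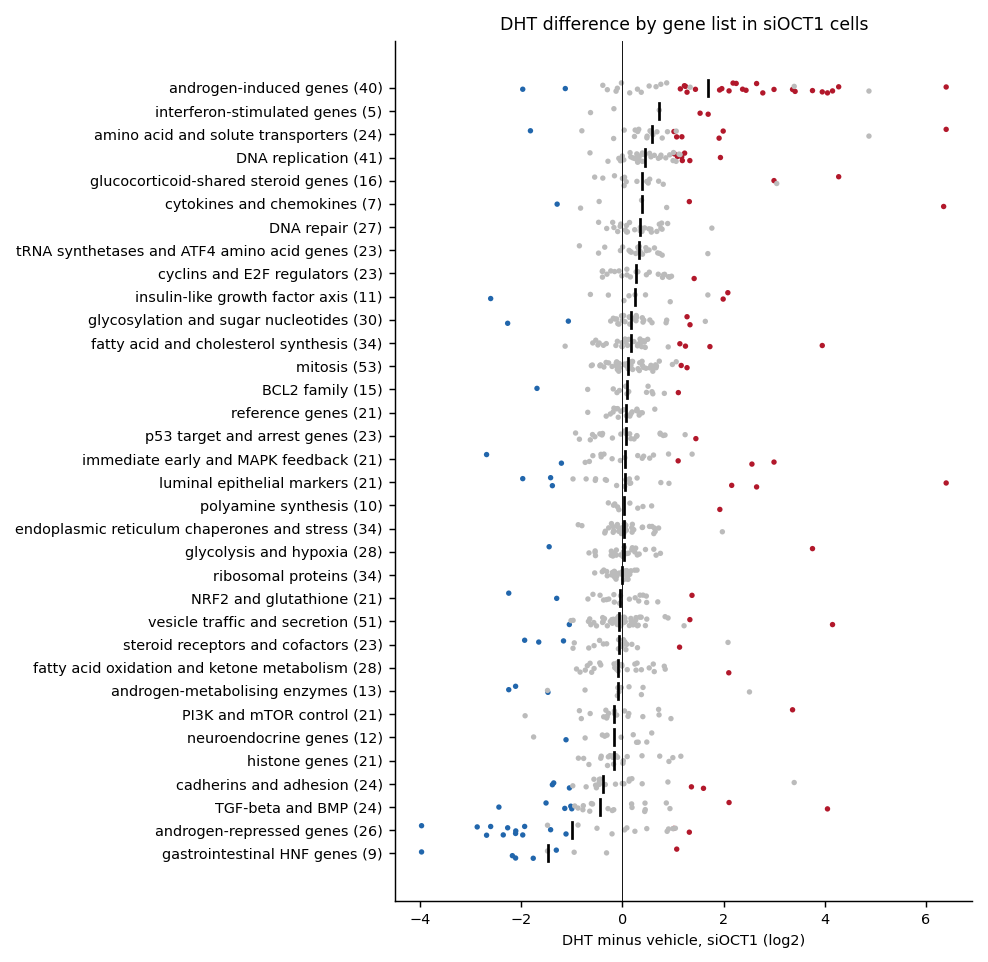
DHT minus vehicle in siOCT1 cells on the log2 scale for the measured members of each list with at least 5 of them, the number in brackets; points are genes (red at least 2-fold higher, blue lower, grey neither) and black bars the list medians. Androgen-induced genes have the highest median, 1.68, and the gastrointestinal list the lowest, -1.48 over 9 genes.

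Over the same 7576 genes the siControl arrays, which share no array with the siOCT1 pair, had 532 genes at least 2-fold higher with DHT, 7.02%, and 201 lower, 2.65%. In the higher direction 101 genes passed with both siRNAs, 46.3% of the siOCT1 genes and 19.0% of the siControl genes. In the lower direction 62 did, 31.8% of the siOCT1 genes and 30.8% of the siControl genes. The genes were chosen on the siOCT1 arrays, and the backgrounds of the vehicle arrays differed, 6.62 in siControl against 7.39 in siOCT1, so a dim gene had more room to pass as higher in siControl. The 218 higher genes had a median difference of 1.33 in siOCT1, on which they were picked, and 0.86 in siControl, and the 195 lower ones -1.29 and -0.78. Over the 6458 genes above background on all 4 arrays the differences correlated with a Pearson coefficient of 0.43 and a Spearman coefficient of 0.32, a description across genes, which are not replicates. Of the lower genes 19 were below background on both siControl arrays, SI and UGT2B15 among them, and of the higher genes 2 were. The share of all 7576 genes below background on both siControl arrays was not counted, so 19 and 2 have no baseline.

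Only 2 genes passed in opposite directions. ABCA5, a lipid transporter, read 9.93 and 8.30 in siOCT1 and 7.54 and 8.80 in siControl, and CYP1A1, a target of the aryl hydrocarbon receptor, read 9.40 and 8.12 beside 8.13 and 9.39. In both cases the siOCT1 vehicle array was the highest of the 4.

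**Figure D5:**
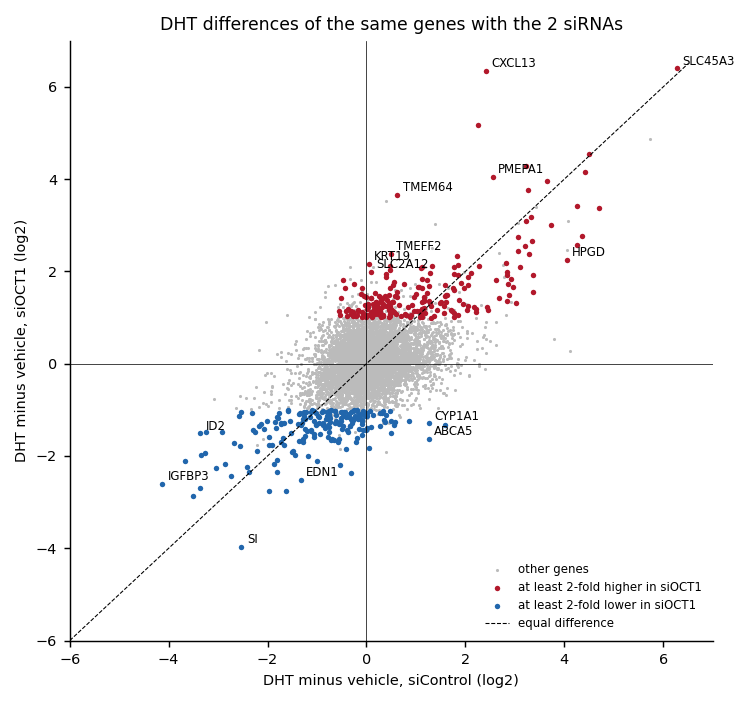
DHT minus vehicle on the log2 scale in siControl cells (horizontal) and in siOCT1 cells (vertical) for 7576 genes; red and blue mark genes at least 2-fold higher and lower in siOCT1, and the dashed line marks equal differences. SLC45A3 lies near the line, TMEM64, TMEFF2, SLC2A12 and KRT19 lie above it, and ABCA5 and CYP1A1 fall in the quadrant of opposite signs.

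Promoter sequences were searched because many genes were higher with the same ligand and the siRNA is named for an octamer-binding factor. RefSeq windows of 250 bases before the gene start, build GRCh38.p14, were matched by symbol for 6411 of the 7576 genes. The hexamer AGAACA of the androgen response element, on either strand, occurred in 7.18% of them, in 12 of 178 higher genes (6.74%) and in 7 of 156 lower genes (4.49%). The octamer ATGCAAAT, on either strand, occurred in 1.25% of all, in 2 of the higher genes (1.12%) and in 3 of the lower ones (1.92%). The full palindrome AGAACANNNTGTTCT, which contains the hexamer on both strands, occurred in 0 windows. The shares in responding genes were near those of all genes, and a window without these letters says nothing about the factors.

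The sequences shown, on the minus strand in each case, are from the higher and lower genes of largest difference with a hexamer, STK39 (chr2:168247596-168247845) and SI (chr3:165078497-165078746), and from both higher genes with an octamer, ALDH1A1 (chr9:72953054-72953303) and LGR4 (chr11:27472791-27473040). Capitals mark the hexamer in STK39 and SI and the octamer in ALDH1A1 and LGR4, or their reverse complements, and the last base adjoins the gene start.
STK39: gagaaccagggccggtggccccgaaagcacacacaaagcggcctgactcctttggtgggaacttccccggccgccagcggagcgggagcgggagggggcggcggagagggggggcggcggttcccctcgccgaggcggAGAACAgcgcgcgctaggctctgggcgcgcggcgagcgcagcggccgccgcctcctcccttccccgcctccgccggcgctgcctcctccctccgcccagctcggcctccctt
SI: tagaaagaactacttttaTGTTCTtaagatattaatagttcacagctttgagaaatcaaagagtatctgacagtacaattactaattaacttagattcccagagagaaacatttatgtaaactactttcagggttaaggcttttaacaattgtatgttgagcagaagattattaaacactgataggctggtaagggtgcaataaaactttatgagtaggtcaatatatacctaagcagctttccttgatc
ALDH1A1: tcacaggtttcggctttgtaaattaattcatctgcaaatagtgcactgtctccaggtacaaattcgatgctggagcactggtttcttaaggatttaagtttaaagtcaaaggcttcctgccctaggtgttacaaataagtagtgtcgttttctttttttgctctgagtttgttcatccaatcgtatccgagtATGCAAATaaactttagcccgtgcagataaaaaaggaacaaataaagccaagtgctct
LGR4: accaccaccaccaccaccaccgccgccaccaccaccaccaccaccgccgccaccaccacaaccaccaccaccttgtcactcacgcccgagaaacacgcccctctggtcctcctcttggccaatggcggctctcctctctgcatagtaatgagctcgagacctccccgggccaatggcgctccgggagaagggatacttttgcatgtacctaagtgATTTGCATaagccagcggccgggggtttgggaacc

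ALDH1A1, a retinaldehyde dehydrogenase, read 9.09 and 10.84 in siOCT1 and 7.42 and 9.32 in siControl, differences of 1.76 and 1.90. LGR4, a receptor for R-spondins, read 8.17 and 9.64 in siOCT1, a difference of 1.46, and 7.18 and 7.76 in siControl. Both were shown because they were higher and hold an octamer, and LGR4 did not pass 2-fold in siControl. The other 3 genes past 2-fold with an octamer were lower in siOCT1 cells, MCUR1 by a difference of -1.04, ZMYM1 of -1.21 and YPEL3 of -1.23. All 5 were named after their values were seen. A match of 6 or 8 letters is a description of the window and not a site.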

How the data were processed

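Total RNA of 22Rv1 cultures was labelled with a whole-transcript kit, and each group has 1 array. The authors deposited signals taken here as log2, the scale RMA gives, and the submitters' processing notes name Affymetrix Expression Console and RMA. Their versions and the genome build were not given in any source used here. RMA gives all arrays a common distribution, so a global shift is lost. The base is not settled: values run from 1.37 to 19.4, and 327 to 379 per array exceed 16, the limit of a 16-bit scanner on that scale, so every fold and 2-fold count assumes base 2. Counting depth has no meaning for arrays, and their number limits the precision.

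Of 24351 probe sets 17709 had 1 gene symbol and 0 several, and 3739 transcript probe sets had none. For 20 genes with several probe sets the one with the highest mean over the 4 arrays was used. A gene below background on its dimmer array has the fold of its brighter signal against that background, written as a lower bound, and a gene below it on both has none. No test was made. The genes named by rule are the 15 highest and 15 lowest by this bounded difference, leaving out small RNA and uncharacterised symbols. To these the naming rule adds up to 4 per list past 2-fold or the 2 largest. It also adds those past 2-fold in opposite directions with the siRNAs, and 2 on each side of background. Other list members, SMAD9, SKIL, VIL1 and TK1 among them, were named outside this rule. Genes named for contrast with siControl were chosen after their values were seen. The members and the 36 gene lists were chosen with earlier results of these data known. The difference rule was tested on simulated data. Python 3.11.15, numpy 2.4.6, pandas 2.3.3, statsmodels 0.14.6 and matplotlib 3.10.9 were used. Alternatives are named in the closing section.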

Additional observations from a re-analysis of the deposited data

Results flagged for a closer look

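ABCA5 and CYP1A1 had DHT differences of opposite sign with the 2 siRNAs. ABCA5 stood at -1.63 in siOCT1 and 1.26 in siControl, and CYP1A1 at -1.29 and 1.25. The difference between the siRNAs was not tested. Among transcript probe sets without a gene symbol, which no comparison used, 1084 passed the same filter, and 27 were at least 2-fold higher (2.49%) and 22 lower (2.03%) with DHT in siOCT1 cells, against 2.88% and 2.57% of named genes.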

How the results depend on the processing

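The counts of 218 higher and 195 lower genes, and of 101 and 62 with both siRNAs, depended on the size rule and the background. At 1.5-fold they were 827 and 752, and 303 and 230. With the 99th percentile of the negative controls as background, 9.37 and 9.38 on the siOCT1 arrays, they were 97 and 61, and 46 and 29. With values as deposited 339 genes were higher. They stayed within 1.5 times under the other 8 settings: raising both values to the higher background, no filter on dim genes, centring on positive controls or by lowess, mean of probe sets, 32 added before the logarithm, leaving out small RNA and uncharacterised symbols, and only genes above background on both arrays, the last chosen after seeing the data. The higher and lower counts were 182 and 229 with centring on positive controls and 197 and 221 with lowess, so the excess of higher genes turns with the centring. The median of androgen-induced genes ranged from 1.24 to 2.11, and that of androgen-repressed genes went from -0.996 to -0.62 with both values raised to the higher background, -0.34 with no filter and -0.50 with only genes above background on both arrays. The genes named by rule included 83 past 2-fold, and genes named outside the rule are not counted here. Of the 83, 82 or more kept this in the same direction under lowess, positive control centring, an offset of 32 and values as deposited. The count was 81 with both values raised, 66 with only genes above background on both arrays and 48 with the 99th percentile. Under every setting that gave them a value 61 stayed past 2-fold. With the 99th percentile 18 genes were still measured but no longer past 2-fold, among them GATA2 at -0.14 and IGF1R at 0.84. None reversed. Signals near background limit what can be seen, and leaving out a replicate was not possible with 1 array per group.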

Other observations

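A list of 70 factors of ribosome assembly in the nucleolus was written after some of them were seen among the higher genes, so its counts are a description. Of 53 measured, 5 were at least 2-fold higher and 0 lower in siOCT1 cells, and 6 were higher and 0 lower in siControl, against 2.88% and 7.02% of all genes in the higher direction. The 6 were NOP58, RRP15, LTV1, UTP15, MPHOSPH10 and SDAD1, none of which passed 2-fold in siOCT1. Of the 44 above background on both siOCT1 arrays, 38 had a difference above zero, with a median of 0.49 beside 0.02 in siControl. Of the 5 siOCT1 genes, NOP16 read 9.24 and 10.88 in siOCT1 and 12.11 and 11.69 in siControl. MAK16 read 9.85 and 11.48 beside 11.76 and 11.66, and WDR12, of the PeBoW complex, 8.22 and 9.72 beside 9.30 and 9.18. WDR3 and UTP14A, of the small subunit processome, differed by 1.39 and by at least 2.02-fold. In each of these 5 genes the siOCT1 vehicle array was the lowest of the 4.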
